A study of Arabidopsis thaliana with 8 samples.

Results

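The late rise of cold-treated Arabidopsis thaliana is a set of 83 probe sets whose signal was high after 7 days at 4 °C and still near its starting level after 24 h. A probe set is the group of short oligonucleotides by which an ATH1 array reports a transcript. The 83 make up 0.365% of the 22746 probe sets on the array that are not manufacturer controls. They were selected on the measured values themselves. On the scale log2(group mean signal + 8), the 7 day mean had to lie at least 1 above both the 0 h mean and the 24 h mean, the 24 h mean had to lie within 0.9 of the 0 h mean, and both 7 day arrays had to read above every 0 h and 24 h array. There were 88 probe sets that met these thresholds. Of these, 5 were on a list of probe sets set aside by name or by a range of probe set numbers. That list includes probe sets for organelle genes. Of the remaining 83, 45 were paired with a single gene, 1 with several genes, and 37 were not listed in the platform annotation used here and are given by their probe set number. The 45 genes were all different. For 2 of them, scpl35 and 2A6, the gene table gave a symbol other than the locus code.

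The plants were of the Col-0 accession with no transgene or mutation named, grown on agar plates, and RNA was taken from whole plants. They had been kept for 4 days of stratification and were 10 days old when the cold began. The 0 h group was harvested under growth conditions of 24 °C and continuous light of 100 µmol m-2 s-1. The 1 h, 24 h and 7 day groups were moved to 4 °C under continuous light of about 25 µmol m-2 s-1 for that time, and each of the 4 groups held 2 arrays. No group kept warm for 24 h or 7 days is among these arrays, so cold, dim light and, at 7 days, a week of further age cannot be told apart. Nothing in the labels says that the 2 arrays of a group came from separate plates, so their spread may be technical.

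Plants that withstand freezing acquire that tolerance during days at low, non-freezing temperatures, a process called cold acclimation. Its first hours are led by transcription factors of the CBF family and the cold-regulated genes they bind, while changes in membranes, cell walls, sugars, protein synthesis and pathogenesis-related proteins are built up over days. In RNA of whole plants, more transcript per cell and more cells that make the transcript cannot be told apart.

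The arrays were comparable in brightness. The authors' MAS5 signals had the same trimmed mean of about 100.0 on each array, and the array medians ran from 37.4 to 43.9. The 3′ to 5′ ratio of the actin controls, which grows as RNA breaks down, ran from 2.95 to 6.53, with 3.84 and 2.95 at 0 h, 6.53 and 3.44 at 24 h, and 3.83 and 5.91 at 7 days. The first 1 h array had a ratio of 5.32 and the second 3.95, so both exceeded the 0 h arrays. Whether RNA breakdown had a part in the late rise or in the differences between 1 h and 0 h was not tested. Of the organ marker genes checked against the whole-plant label, the light-harvesting protein gene LHCB4.2 of leaves and the root glucosidase gene PYK10 gave signals of 731 or more on every array, and the single seed marker and the single flower marker measured did not pass the filter on dim probe sets. For PYK10 the arrays gave 2368 and 2177 at 0 h, 1730 and 959 at 24 h, then 998 and 731 at 7 days. It fell by 1.402 ± 0.27 (log2, standard error) at 7 days against 0 h (limma, adjusted p = 0.00386), and LHCB4.2 differed by -0.35 ± 0.24 (limma, adjusted p = 0.324). The other 2 root markers tested were not called, EXPA7 with -0.35 ± 0.28 (limma, adjusted p = 0.419) and EXPA18 with 0.38 ± 0.29 (limma, adjusted p = 0.387).

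The size of the late rise was modest for most of its probe sets and very large for a few. The log2 difference between 7 days and 0 h ran from 1.01 to 3.70 with a median of 1.37, and the middle of the set lay between 1.21 and 1.65. It was under 1.5 in 49 of the 83, at least 2 in 7 and at least 3 in 2. Against 24 h the difference ran from 1.00 to 4.25 with a median of 1.44. These differences carry no test, because the same values chose the probe sets.

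At 24 h the set stood, by its selection, near the 0 h level. The 24 h minus 0 h difference ran from -0.78 to 0.86 with a median of -0.03, and it was within 0.3 of the 0 h mean in 51 of 83. Both 24 h arrays read below both 0 h arrays in 17 probe sets and above both in 14. In the other 52 the arrays of the 2 times overlapped. The rule used these arrays and the shares over all probe sets were not counted, so nothing is read from these numbers.

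**Figure D1:**
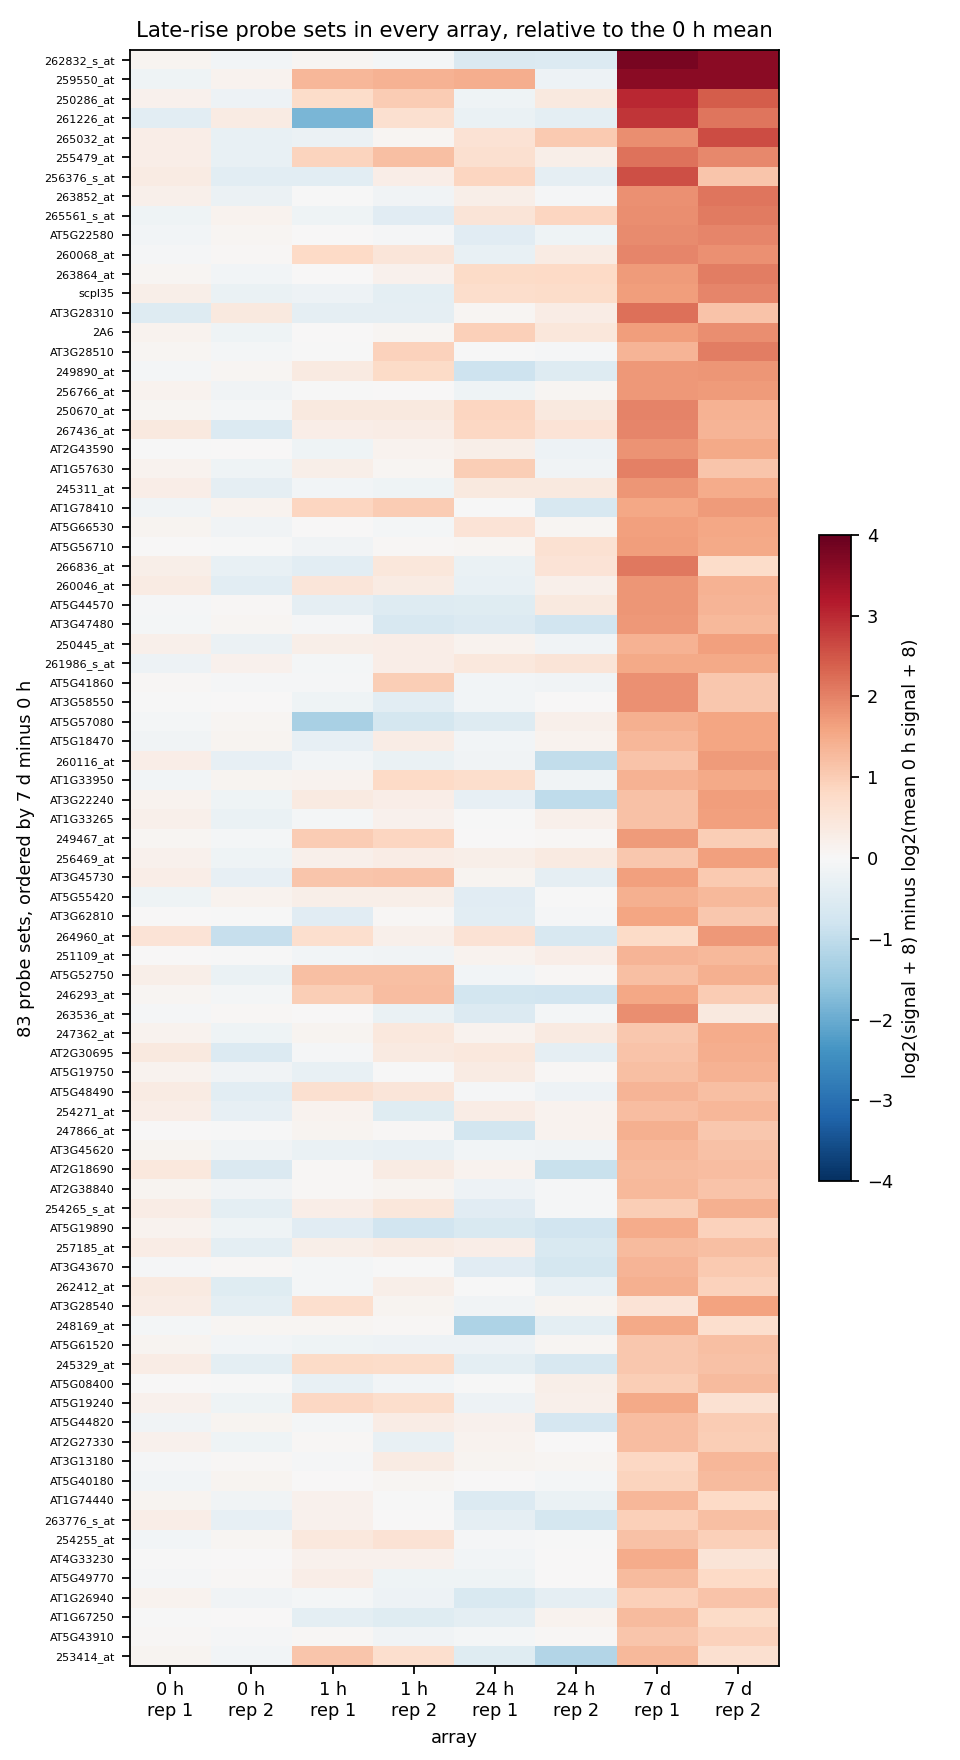
Each row is 1 of the 83 late-rise probe sets, ordered by its difference between 7 days and 0 h, and each column is 1 of the 8 arrays. Colour gives log2(signal + 8) minus log2(mean 0 h signal + 8). The 7 day columns are red throughout because of how the probe sets were chosen, while the 1 h columns show 24 rows in which both arrays lie above both 0 h arrays.

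The 2 strongest members are unnamed here. Probe set 262832_s_at read 295 and 255 at 0 h, 289 and 259 at 1 h, 184 and 186 at 24 h, and 3911 and 3420.0 at 7 days. The 0 h, 1 h and 24 h arrays all lay at or below 295, and the mean at 7 days was 13.3 times the mean at 0 h, the log2 difference being 3.70. Probe set 259550_at read 5.57 and 8.87 at 0 h, 30.2 and 32.1 at 1 h, 34.0 and 5.15 at 24 h, and 176 and 177 at 7 days. Its 24 h arrays disagreed, with the first near the 1 h level and the second near the 0 h level, and its log2 difference at 7 days was 3.60.

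The other 5 probe sets with a log2 difference of at least 2 were unnamed or paired with several genes, and they are named here after their values were seen. Probe set 250286_at had a difference of 2.75, with 3.71 and 1.14 at 0 h, 1.21 and 5.75 at 24 h, and 75.7 and 48.1 at 7 days. Probe set 261226_at, with 2.54, read 42.8 and 77.6 at 0 h, 48.5 and 43.9 at 24 h, and 483 and 292 at 7 days. For 265032_at, with 2.28, the signals were 79.4 and 51.0 at 0 h, 101 and 143 at 24 h, and 259 and 435 at 7 days. In all 3 the 7 day arrays were more than 1.25-fold apart. Probe set 255479_at reached 1125 and 945 at 7 days from 294 and 196 at 0 h. The several-gene probe set 256376_s_at rested on dim and uneven arrays, with 61.8 and 17.4 at 7 days against 6.62 and 0.848 at 0 h.

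Genes whose products belong to families known from defence and signalling formed the largest named group. There were 13 of them among the 45 genes, with a median log2 difference at 7 days of 1.45 and a range from 1.06 to 1.75. The grouping by family rests on general knowledge of these genes and was made after the values were seen. It holds 1 gene each for a chitinase, a lectin, a receptor kinase, an EF-hand protein and a guanylate-binding protein, with 8 genes of other families, and no enrichment of defence genes was tested.

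AT2G43590 encodes a protein of the chitinase family, whose enzymes cut the chitin of fungal walls. It read 133 and 138 at 0 h, 121 and 150.0 at 1 h, 159 and 117 at 24 h, and 487 and 406 at 7 days, a 3.29-fold higher mean. The first 6 arrays overlapped fully, and the 7 day arrays stood clear of all of them. AT3G47480, an EF-hand calcium-binding protein gene, read 27.7 and 31.1 at 0 h, 28.6 and 16.2 at 1 h, 17.4 and 14.0 at 24 h, and 116 and 83.8 at 7 days. Its 24 h arrays were both below its 0 h arrays, so the log2 difference of 2.19 against 24 h was larger than that of 1.53 against 0 h.

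AT1G78410 encodes a protein with a VQ motif, a short motif of proteins that bind WRKY transcription factors. Its signals were 6.00 and 9.09 at 0 h, 20.0 and 23.2 at 1 h, 7.48 and 2.01 at 24 h, and 37.4 and 42.8 at 7 days. It was high at 1 h, back at the 0 h level at 24 h and higher still at 7 days, without overlap between 1 h and 7 days. AT5G52750, whose product has a heavy-metal-associated domain, had the same order of groups. It read 35.8 and 23.1 at 0 h, 78.3 and 77.6 at 1 h, 26.7 and 30.4 at 24 h, and 78.6 and 92.6 at 7 days, so that its 1 h arrays nearly equalled the lower 7 day array.

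AT3G28510 and AT3G28540 encode ATPases of the AAA type, enzymes that remodel other proteins or membranes with the energy of ATP. AT3G28510 was dim, with 1.59 and 0.506 at 0 h, 0.931 and 8.98 at 1 h, 0.979 and 0.679 at 24 h, and 15.4 and 29.3 at 7 days. It did not pass the filter on dim probe sets, and its fold change is understated by the added constant of 8. AT3G28540 read 28.0 and 14.5 at 0 h, 38.6 and 23.4 at 1 h, 18.6 and 23.7 at 24 h, and 35.0 and 80.4 at 7 days. One 7 day array of AT3G28540 lay within the range of its 1 h arrays.

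AT5G18470, a mannose-binding lectin gene of the curculin-like family, read 41.4 and 50.4 at 0 h, 42.4 and 51.1 at 24 h, and 128 and 153 at 7 days. AT2G38840, of the guanylate-binding family of large GTPases, read 27.1 and 21.3 at 0 h, 20.2 and 23.1 at 24 h, and 71.7 and 63.8 at 7 days. Both were flat through the first day and had close 7 day replicates. AT5G19240, which encodes a glycoprotein held to the membrane by a GPI anchor, read 355 and 278 at 0 h, 565 and 523 at 1 h, 277 and 366 at 24 h, and 914 and 488 at 7 days. Its second 7 day array lay below both 1 h arrays.

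AT3G22240 encodes a small cysteine-rich protein with a transmembrane module. It read 2462 and 1991 at 0 h, 2854 and 2664 at 1 h, 1771 and 1096 at 24 h, and 5051 and 7111 at 7 days. Its 24 h arrays were the lowest and the 7 day arrays the highest, with a log2 difference of 2.08 between them.

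The other 3 of the 13 were dim. AT1G57630, a gene for a TIR domain protein of the kind found in immune receptors, read 4.83 and 2.34 at 0 h, 5.72 and 4.22 at 1 h, 14.8 and 2.62 at 24 h, and 38.9 and 17.2 at 7 days. The guanine-nucleotide-binding AIG1-like protein gene AT1G33950 read 20.6 and 23.4 at 7 days against 2.13 and 3.87 at 0 h. AT5G49770, a receptor kinase gene with leucine-rich repeats, read 15.6 and 8.94 at 7 days against 1.34 and 2.12 at 0 h. All 3 failed the filter on dim probe sets.

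Lipid transfer proteins, small secreted proteins that carry lipids between membranes or to the plant surface, were represented by 2 genes. AT3G58550 read 164 and 165 at 0 h, 145 and 121 at 1 h, 152 and 165 at 24 h, and 604 and 359 at 7 days. AT5G48490, a relative of DIR1, which is known for its part in systemic resistance, read 797 and 476 at 0 h, 986 and 899 at 1 h, 612 and 549 at 24 h, and 1642 and 1485 at 7 days. At 1 h both arrays of AT3G58550 lay below and both arrays of AT5G48490 above the 0 h arrays, but neither difference was called, at -0.29 ± 0.23 (limma, adjusted p = 0.99996) and 0.61 ± 0.23 (limma, adjusted p = 0.836).

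Among genes of the wall and apoplast, the space outside the plasma membrane, the first day was a low point for 2 of 3. AT5G19890, a class III peroxidase gene of the family that oxidises phenolics in the wall, read 57.2 and 45.0 at 0 h, 35.4 and 26.7 at 1 h, 30.5 and 26.5 at 24 h, and 157 and 104 at 7 days. AT3G43670, a copper amine oxidase gene, whose family breaks down polyamines and releases hydrogen peroxide, read 57.7 and 61.0 at 0 h, 56.1 and 58.2 at 1 h, 41.5 and 33.4 at 24 h, and 165 and 129.7 at 7 days. In both genes the 24 h arrays lay below the 0 h arrays without overlap. AT4G33230, a pectin methylesterase gene, was dim, with 17.7 and 5.29 at 7 days and no signal above 2.499 on the other arrays.

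Genes of carbohydrate metabolism numbered 4, and they kept close to their starting level until 24 h. AT5G66530, of the galactose mutarotase-like family that interconverts sugar anomers, read 333 and 279.5 at 0 h, 311 and 287 at 1 h, 449.9 and 325 at 24 h, and 974 and 918 at 7 days. AT5G61520, which encodes the sugar transporter STP3, read 95.3 and 80.6 at 0 h, 77.0 and 74.8 at 1 h, 75.1 and 94.2 at 24 h, and 195 and 212 at 7 days. In both genes the arrays of 0 h and 24 h overlapped and the 7 day arrays were within 1.25-fold of each other. AT5G44820, a nucleotide-sugar transferase gene, and AT5G43910, a pfkB-type carbohydrate kinase gene, had log2 differences of 1.12 and 1.02 from 0 h to 7 days.

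Protein and RNA handling gave 6 genes, 5 of which had log2 differences at 7 days of up to 1.60. AT5G56710 encodes the ribosomal protein L31 of the large subunit. It read 1322 and 1281 at 0 h, 1182 and 1337 at 1 h, 1380.4 and 1986 at 24 h, and 4202 and 3710.1 at 7 days, a 3.04-fold higher mean than at 0 h. The gene scpl35, which encodes a protein of the serine carboxypeptidase-like family, had the highest difference of the 6, with 299 and 212 at 0 h, 222 and 195 at 1 h, 425 and 429 at 24 h, and 829 and 1016 at 7 days. Its 24 h arrays were already above its 0 h arrays, and the log2 difference from 24 h to 7 days was 1.097.

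The other 4 of this group had smaller differences. AT1G67250 encodes UMP1, a factor that helps assemble the proteasome. It read 445 and 446 at 0 h, 336 and 313 at 1 h, 335 and 495 at 24 h, and 1078 and 767 at 7 days, lying below the 0 h level at 1 h. AT1G26940, a cyclophilin gene whose family speeds the folding of proteins at proline bonds, had a log2 difference of 1.04. AT2G27330, which encodes an RNA-binding protein with an RNA recognition motif, had 1.12, and AT3G13180, of a family of RNA methyltransferases, had 1.102.

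Proteins of organelle membranes or of organelle assembly were encoded by 3 genes, none from the organelle genomes. AT3G62810, of the LYR family that serves the assembly of mitochondrial complexes, read 62.5 and 60.2 at 0 h, 44.1 and 59.5 at 24 h, and 199.7 and 138 at 7 days. AT1G33265, a membrane protein gene of the transmembrane 14C type, read 77.5 and 53.9 at 0 h, 64.8 and 76.3 at 24 h, and 159 and 219.8 at 7 days. AT5G19750, of the Mpv17 and PMP22 family, read 163 and 135 at 0 h, 187 and 154 at 24 h, and 351 and 401 at 7 days. The arrays of 0 h and 24 h overlapped in AT1G33265 and AT5G19750, and those of AT3G62810 were lower at 24 h without overlap.

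The single-gene probe set with the largest difference was AT5G22580, whose product has the A/B barrel domain of stress-responsive proteins. Its signals were 172 and 197 at 0 h, 184 and 178 at 1 h, 133 and 161 at 24 h, and 709.9 and 736 at 7 days. The mean at 7 days was 3.93 times that at 0 h. The 7 day replicates were closer to each other than the 24 h replicates. The gene 2A6 encodes an oxygenase that uses 2-oxoglutarate and iron. It read 99.1 and 78.3 at 0 h, 89.7 and 93.9 at 1 h, 177 and 124 at 24 h, and 297 and 339.9 at 7 days, with both 24 h arrays above the 0 h arrays. AT3G45620, a WD40 repeat protein gene, read 111 and 91.8 at 0 h, 93.2 and 90.4 at 24 h, and 264 and 238 at 7 days.

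There were 11 genes to which no role is given here. Of these, AT3G28310 read 5.21 and 16.7 at 0 h, 6.83 and 6.67 at 1 h, 11.8 and 15.5 at 24 h, and 80.0 and 34.0 at 7 days. AT5G44570 had 14.5 and 15.96 at 0 h, 10.0 and 8.16 at 1 h, 8.56 and 22.7 at 24 h, and 71.7 and 51.6 at 7 days. AT5G57080 gave 23.5 and 26.8 at 0 h, 5.41 and 12.2 at 1 h, 15.3 and 30.2 at 24 h, and 80.2 and 90.8 at 7 days. The last of these was the member with the lowest 1 h value relative to 0 h. AT5G41860 was dim, with 30.5 and 14.9 at 7 days, 3.22 and 2.33 at 0 h, and 13.4 on the second 1 h array. The remaining 7 had log2 differences at 7 days between 1.08 and 1.37.

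**Figure D2:**
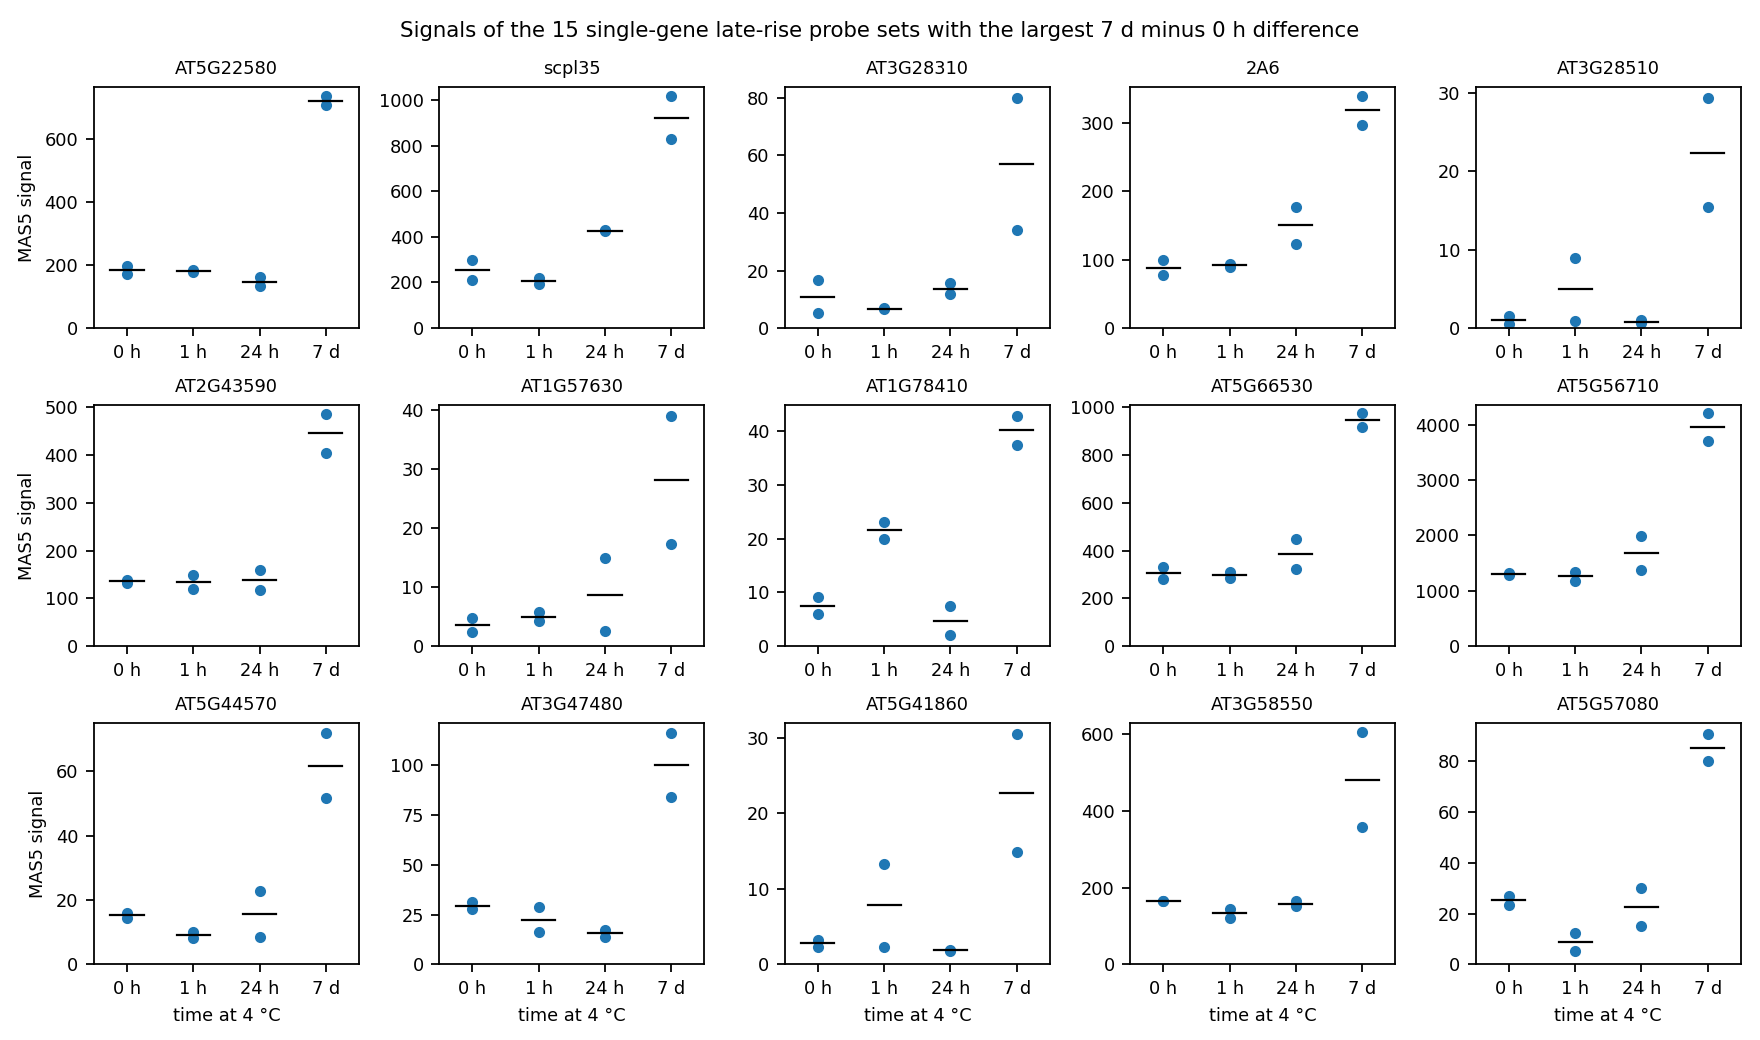
MAS5 signal, on a linear axis that starts at 0, against time at 4 °C for the 15 single-gene probe sets with the largest difference between 7 days and 0 h. Points are the 2 arrays of a group and the bar is their mean. AT1G78410 shows the 1 h values of 20.0 and 23.2 between a low 0 h and a low 24 h, while AT2G43590 stays flat up to 24 h. For AT5G22580 both 24 h arrays lie below both 0 h arrays.

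**Figure D3:**
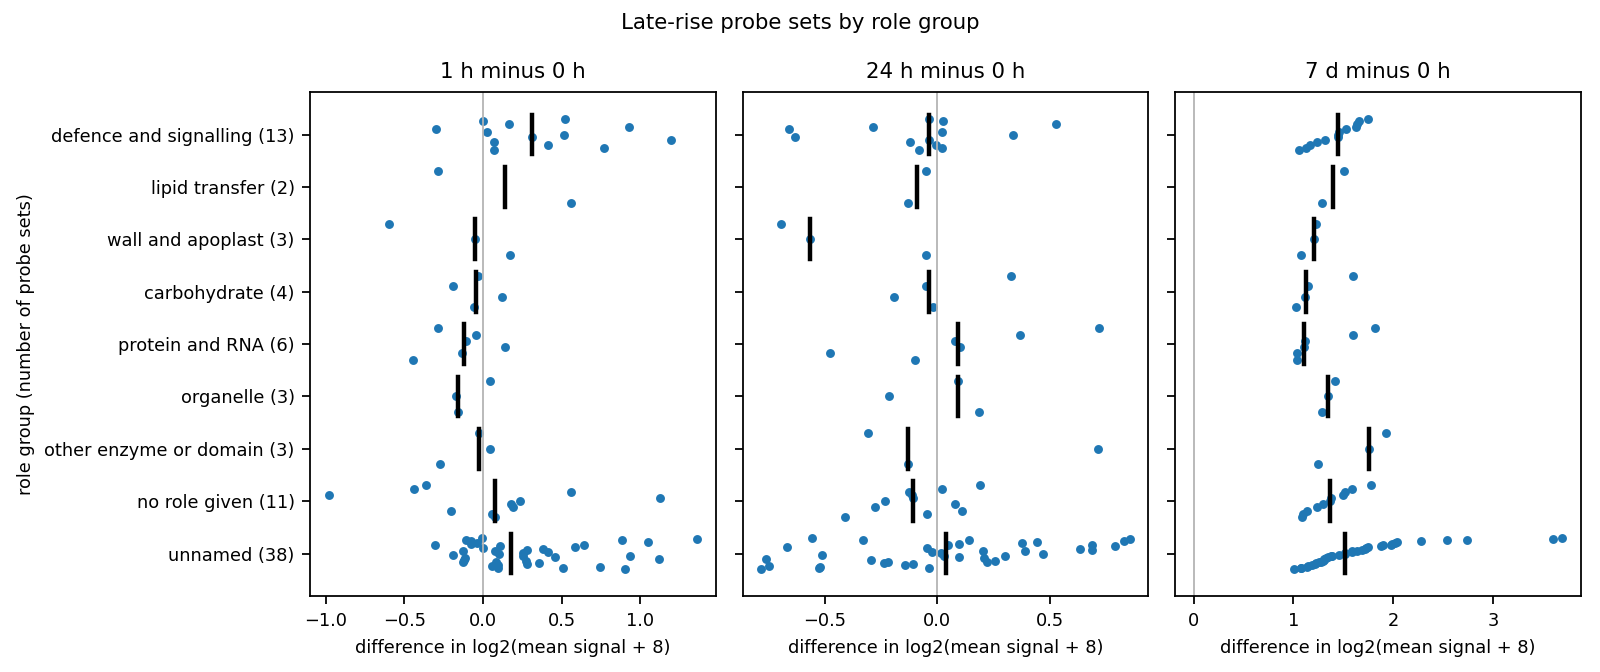
Differences in log2(mean signal + 8) from 0 h at 1 h, 24 h and 7 days for the 83 late-rise probe sets, by the role group described in the text, with the number of probe sets in brackets. Points are probe sets and bars are group medians. The 7 day panel is bounded below at 1 by the selection. At 1 h the median of the 13 defence and signalling genes is 0.31, and that of the 6 protein and RNA genes is -0.12.

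The arrays taken after 1 h in the cold had no part in the selection and show whether the late rise was late in every sense. For 24 of the 83 probe sets (28.9%) both 1 h arrays read above both 0 h arrays, against 16.2% of all non-control probe sets. For 10 (12.0%) both read below, against 16.7% of all. In the other 49 the 1 h and 0 h arrays overlapped. The rule used the 0 h arrays, so this comparison is not independent of it.

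A difference of at least 1 on the log2 scale from 0 h to 1 h was met by 5 members (6.02%), against 0.914% of all non-control probe sets. This share rests on the 0 h arrays that the rule used, and nothing is concluded from it. The 5 were 259550_at with 1.36, AT5G52750 with 1.198, AT3G45730 with 1.13, 246293_at with 1.12 and 255479_at with 1.05. Of these, AT3G45730 did not pass the filter on dim probe sets. AT3G45730, a gene given no role here, read 9.25 and 3.43 at 0 h, 23.1 and 23.6 at 1 h, 7.48 and 3.16 at 24 h, and 36.8 and 21.5 at 7 days. Probe set 246293_at read 114 and 103 at 0 h, 221 and 267 at 1 h, 61.2 and 59.9 at 24 h, and 329.9 and 229 at 7 days. In these 2, as in AT1G78410, AT5G52750 and AT5G19240, both 1 h arrays lay above all 0 h and 24 h arrays.

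Both 1 h arrays lay above all 0 h and all 24 h arrays in 19 of the 83 probe sets (22.9%), against 6.92% of all non-control probe sets. The rule held the 0 h and 24 h arrays below the 7 day arrays, so this comparison too is not independent of it, and nothing is concluded from the share. In these 19 the 7 day arrays were not the only ones above 0 h and 24 h, but the test below called none of the 73 members that could be tested. The 24 probe sets that were higher at 1 h without overlap held 15 unnamed ones and 9 single genes. Those 9 were AT1G78410, AT1G33950, AT3G22240, AT5G52750 and AT5G19240 of the defence and signalling group, AT5G48490 of the lipid transfer proteins, AT4G33230 of the wall genes, and AT3G45730 and AT5G55420 without a role.

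The 10 lower ones included the peroxidase gene AT5G19890, the lipid transfer gene AT3G58550, the transporter gene AT5G61520 and the proteasome factor gene AT1G67250. The lowest log2 difference was the -0.98 of AT5G57080. Over all 83 the 1 h minus 0 h difference ran from -0.98 to 1.36 with a median of 0.08, and it was within 0.5 of 0 in 63. The median was 0.21 without the first 0 h array and 0.01 without the second.

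The test of 1 h against 0 h was limma's moderated test on log2(signal + 8) over all 8 arrays, with Benjamini-Hochberg adjustment over the 15017 probe sets that passed the filter on dim values. A probe set passed that filter if 2 or more arrays placed it above their own 40th percentile. The filter kept 73 of the 83, and since the 7 day arrays alone could carry a probe set through it, nothing is read from that number. None of the 73 was called at an adjusted p under 0.05. The background was 0.32% of all tested probe sets, or 48, of which 47 rose and 1 fell. That total was 23 without the first 0 h array, 16 without the second and 18 without the second 1 h array.

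The fit takes differences of mean log2 values, so they depart slightly from the differences between logged means given above. At an unadjusted p under 0.05 there were 13 of the 73 (17.8%), 11 higher and 2 lower, against 685 of all tested (4.56%). The higher ones alone made up 3.23% of all tested. The rule used the 0 h arrays, and 7 day arrays alone could carry a probe set past the filter. Nothing is read from these shares. The lowest adjusted p values (limma) belonged to 246293_at, with a difference of 1.11 ± 0.21 (standard error) and adjusted p = 0.0594, and to AT5G52750, with 1.22 ± 0.23 and adjusted p = 0.0635. For 255479_at the difference was 1.07 ± 0.23 (limma, adjusted p = 0.123). AT1G78410 gave 0.93 ± 0.36 (limma, adjusted p = 0.848), and AT5G57080 gave -1.01 ± 0.32 (limma, adjusted p = 0.515). The median standard error over the 73 was 0.25, which limits what 2 arrays a group can show. Without either 24 h array 259550_at was called (limma, adjusted p = 0.0468 and 0.0344), and without either 7 day array 246293_at was called (limma, adjusted p = 0.0464 and 0.0454), since those arrays enter the estimate of spread.

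The 7 day arrays stood above the 1 h arrays without overlap in 77 of the 83 (92.8%), against 22.9% of all non-control probe sets. The rule asked for high 7 day arrays, and nothing is read from that share. The 6 that overlapped were AT3G45730, AT3G28540, AT5G19240, 249467_at, 246293_at and 253414_at. For 249467_at the signals were 50.5 and 44.4 at 1 h and 86.5 and 49.9 at 7 days. Those of 253414_at were 321 and 237 at 1 h and 369.6 and 235 at 7 days. In both probe sets the level at 1 h reached that of the lower 7 day array.

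**Figure D4:**
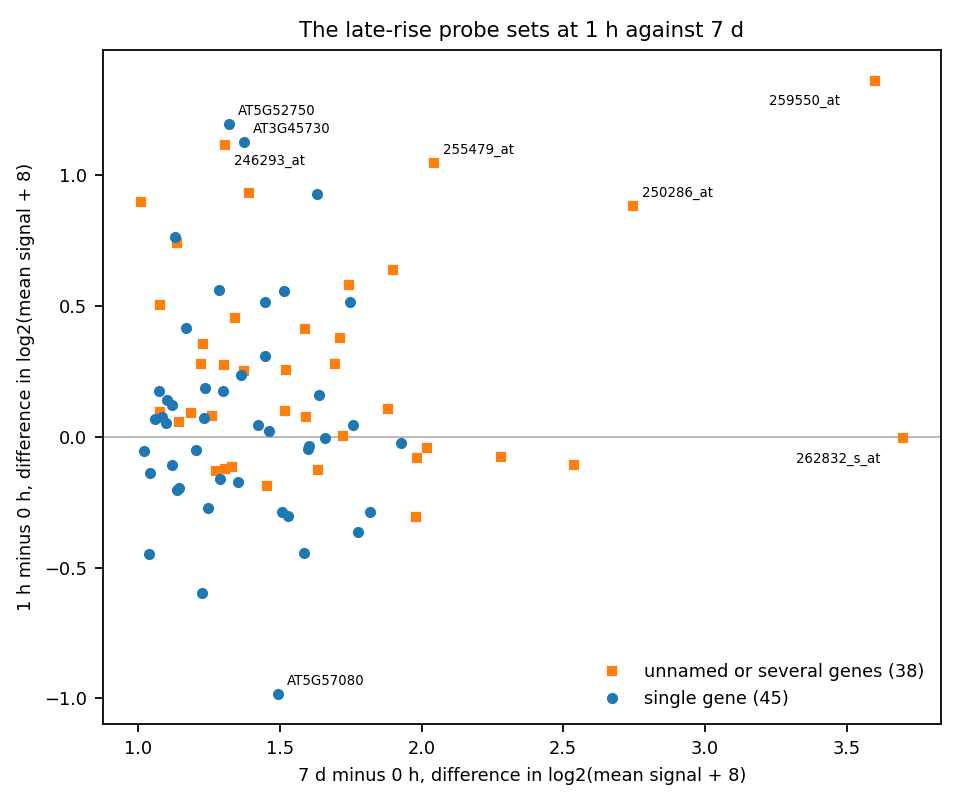
Difference in log2(mean signal + 8) between 1 h and 0 h (vertical axis) against that between 7 days and 0 h (horizontal axis) for the 83 late-rise probe sets. Circles are the 45 single-gene probe sets and squares the other 38, and both axes share the 0 h arrays, so no relation is read from the plot. The 5 probe sets at or above 1 on the vertical axis are 259550_at, AT5G52750, AT3G45730, 246293_at and 255479_at, while 262832_s_at lies near 0 on that axis.

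Agreement between the 2 arrays at 7 days varied over the set. They were within 1.25-fold of each other in 39 of 83, and their median ratio was 1.27. They were more than 2-fold apart in 9, of which 5 had not passed the filter on dim values. Among the 73 that had passed it there were 4 (5.48%), near the 4.49% of all tested probe sets. The rule used both 7 day arrays, so nothing is read from that share. The 9 were AT3G28310, AT1G57630, AT5G41860, AT3G28540, AT4G33230, 256376_s_at, 266836_at, 264960_at and 263536_at. Probe set 263536_at, with 254 and 86.0 after 7 days and 61.4 and 66.8 at 0 h, owed its place in the set to the first 7 day array.

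At 0 h the first array read above the second in 50 of the 73 tested members (68.5%), against 49.5% of all tested probe sets. The first 7 day array was above the second in 41 of the 73 (56.2%), against 50.8% of all. The rule used the arrays of both times, so nothing is read from these shares.

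Probe sets near the thresholds show how sharp the boundary is. Just inside the limit of 1 for 7 days against 0 h were 253414_at with 1.01, AT5G43910 with 1.02 and AT1G67250 with 1.04. Just outside were ATHSP22.0, a small heat shock protein gene, with 0.99, 257101_at with 0.96 and AT3G53890 with 0.96. For 7 days against 24 h, AT3G13180 with 1.00, 267436_at with 1.00 and AT5G08400 with 1.03 were inside. On the other side of that limit, 246055_at and 264638_at were at 0.99 and 258296_at fell short of 1 only in the third decimal.

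Membership also depended on how the signals were scaled and on single arrays. Under 12 alternatives, 33 of the 83 probe sets met the rule each time, and 19 of these were single-gene. Leaving out a 1 h array cannot change the set, so 10 of the 12 bear on it. Among the 15 genes with the largest differences, AT5G22580, AT3G28510, AT2G43590, AT1G78410, AT5G66530, AT5G44570, AT3G47480, AT5G41860, AT3G58550 and AT5G57080 met it in all 12. The genes scpl35 and 2A6 met it in 10, and AT1G57630 in 9. Probe set 262832_s_at met it in all, while 259550_at met it in 7, its 24 h arrays being 34.0 and 5.15.

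Without the second 7 day array the rule selected 141 probe sets, 70 of them among the 83. Without the first it selected 96, with 63 in common. A constant of 4 in place of 8 gave 129, with 82 in common.

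**Figure D5:**
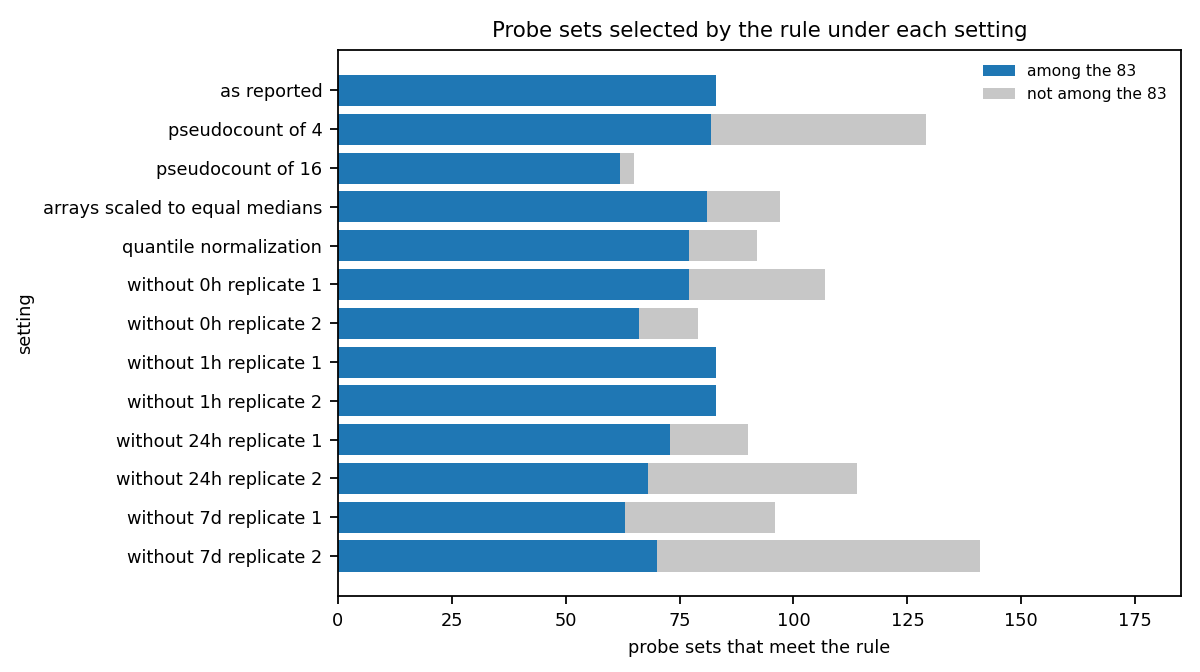
Number of probe sets that meet the rule when 1 setting is changed (horizontal bars, axis from 0). The blue part is shared with the 83 reported and the grey part is not. The total runs from 65 with a constant of 16 to 141 without the second 7 day array.

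The 45 genes were spread unevenly over the 5 chromosomes, as read from their locus codes. There were 8 on chromosome 1, 5 on chromosome 2, 11 on chromosome 3, 1 on chromosome 4 and 20 on chromosome 5. Chromosome 5 thus held 44.4% of them and 22.5% of all single-gene probe sets, and chromosome 4 held 2.22% against 14.7%. No test was made of this distribution, and none of the 44 members placed in the gene order lay within 2 protein-coding genes of another. The 37 members not listed in the annotation could not be placed, so adjacent members may have been missed.

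The genes next to the members were also examined. In the gene order of the RefSeq TAIR10.1 table, 44 members could be placed. The 2 protein-coding genes on either side made 174 distinct neighbours, of which 95 had a single-gene probe set and 62 were tested. The rule was applied to these 95 too, so they are genes that did not meet it, AT5G52760 included. Whether the other neighbours met it is not known. At 7 days against 0 h, 6 neighbours rose (9.68%) and 4 fell (6.45%), where the background was 9.18% higher and 10.7% lower over all tested probe sets. At 7 days against 24 h, 5 rose (8.06%) and 1 fell (1.61%), with 4.83% higher and 4.46% lower over all. The median log2 difference of the neighbours was 0.12 against 0 h and 0.06 against 24 h, where all tested probe sets had -0.05 and -0.01. The counts over all tested probe sets were 2989 and 1396, and they fell to as low as 1472 without the second 7 day array and 291 without the first.

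Some neighbours belong to the same family as the member beside them, and some of these rose while others were not called. They are named after their values were seen. AT5G19250, which adjoins AT5G19240 and also encodes a GPI-anchored glycoprotein, read 873 and 1088 at 0 h, 999.7 and 1005 at 1 h, 873 and 985 at 24 h, and 2047 and 1546 at 7 days. It rose by 0.86 ± 0.20 against 0 h (limma, adjusted p = 0.0117) and by 0.93 ± 0.20 against 24 h (limma, adjusted p = 0.0173). Its course was flat to 24 h, as in the late rise, but its difference fell short of the threshold of 1. The first call was lost without the first 0 h array (adjusted p = 0.0771) or the first 7 day array (adjusted p = 0.0896), and the second without either 24 h array (adjusted p = 0.0853 and 0.0537) or the first 7 day array (adjusted p = 0.137).

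AT5G52760, which adjoins AT5G52750 and has the same type of domain, did not meet the thresholds and was also among the probe sets set aside by name. It read 40.4 and 17.7 at 0 h, 45.8 and 24.9 at 1 h, 3.18 and 0.707 at 24 h, and 54.5 and 54.8 at 7 days. It rose by 2.67 ± 0.37 against 24 h (limma, adjusted p = 0.00202) and differed by 0.83 from 0 h (limma, adjusted p = 0.138). Where AT5G52750 was back at its 0 h level at 24 h, AT5G52760 was far below its own. YLS5 adjoins AT2G38840, but no shared family is claimed for them. YLS5 read 156 and 113 at 0 h, 79.3 and 59.9 at 24 h, and 164 and 175 at 7 days. It rose by 1.202 ± 0.21 from 24 h (limma, adjusted p = 0.00707) to a level near that at 0 h. Beside the chitinase gene AT2G43590, the related genes AT2G43610 and CHI were not called against 0 h, with -0.59 ± 0.28 (limma, adjusted p = 0.161) and 0.57 ± 0.31 (limma, adjusted p = 0.22). Nor was the receptor kinase gene AT5G49760 beside AT5G49770, with 0.25 ± 0.21 (limma, adjusted p = 0.451).

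The 14 gene lists for pathways and organs were matched to the members by symbol, and no member was matched. The 37 members not listed in the annotation could not be matched, so whether they belong to a list is not known. Of the single-gene members only 2 had a symbol other than the locus code. Few genes of these lists could be matched by symbol, and the lists say correspondingly little. Of the salicylate defence list 2 genes were tested, and of the leaf senescence list 2, with none called at 7 days against 0 h or 24 h. The vernalization and flowering time list had 1 gene tested and none called. No gene of the jasmonate list or of the raffinose, starch and sucrose list could be matched to a single-gene probe set.

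Among antimicrobial peptides, 2 of 7 tested genes rose at 7 days against 0 h and none fell, with a median of 0.34, where 9.18% of all tested probe sets rose and 10.7% fell with a median of -0.05. PDF2.1, a defensin gene, read 18.2 and 18.6 at 0 h, 212 and 204 at 24 h, and 558 and 271 at 7 days. It rose by 3.91 ± 0.31 against 0 h (limma, adjusted p = 1.6e-05). LCR69, a gene of the same peptide class, rose by 1.50 ± 0.20 (limma, adjusted p = 0.000642). LCR69 read 1586 and 1460 at 0 h, 4254 and 5339 at 24 h, and 4285 and 4354 at 7 days. Against 24 h none of the 7 rose and 1 fell, with a median of -0.14, where the background was 4.83% higher and 4.46% lower. PDF2.1 and LCR69 were already high at 24 h, so neither gene had the course of the late rise.

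Of the xyloglucan and wall loosening list, 4 of 23 tested genes rose and 2 fell at 7 days against 0 h, with a median of -0.20. The background over all tested probe sets was 9.18% higher and 10.7% lower. Against 24 h 1 rose and 4 fell, with a median of -0.07, where the background was 4.83% higher and 4.46% lower. XTH20, which encodes an enzyme that cuts and rejoins xyloglucan, rose by 3.55 ± 0.28 against 0 h (limma, adjusted p = 1.91e-05). It had read 302 and 269 at 24 h and read 351 and 390.2 at 7 days, a difference of 0.37 ± 0.28 (limma, adjusted p = 0.466). The pectin methylesterase gene ATPMEPCRB rose by 2.65 ± 0.21 (limma, adjusted p = 1.6e-05) and differed by 0.35 ± 0.21 between 24 h and 7 days (limma, adjusted p = 0.326). EXLA2, an expansin-like gene, rose by 1.75 ± 0.23 against 0 h (limma, adjusted p = 0.000487) and fell by 2.05 from 24 h to 7 days (limma, adjusted p = 0.000619). The expansin gene EXPA8 fell by 1.55 ± 0.39 against 0 h (limma, adjusted p = 0.0166). From 24 h to 7 days EXPA8 rose by 1.70 ± 0.39 (limma, adjusted p = 0.0222). Both calls of EXPA8 were lost under some of the alternatives that left out 1 array.

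Glutathione transferases attach glutathione to reactive compounds. Of their genes, 2 of 9 tested rose and 1 fell at 7 days against 0 h, with a median of 0.14. The background over all tested probe sets was 9.18% higher and 10.7% lower. Against 24 h 1 rose and 1 fell, with a median of 0.25, where the background was 4.83% higher and 4.46% lower. GSTU20 rose by 0.77 ± 0.20 against 0 h (limma, adjusted p = 0.0185), a call lost under quantile normalization, and was not called against 24 h. GSTU25 rose by 1.47 ± 0.33 against 0 h (limma, adjusted p = 0.00891), a call lost without the second 0 h array (adjusted p = 0.0551) or the second 7 day array (adjusted p = 0.0633). GSTU18 fell by 1.14 ± 0.20 against 0 h (limma, adjusted p = 0.00272) and rose by 1.12 ± 0.20 against 24 h (limma, adjusted p = 0.00758), the latter call being lost without the first 7 day array (adjusted p = 0.0732). In the lignin list the 1 gene tested, HCT, which encodes an enzyme of the phenylpropanoid pathway, fell by 1.05 ± 0.21 against 0 h (limma, adjusted p = 0.00516), a call lost without the second 7 day array (adjusted p = 0.0543).

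Of the secretory protein folding list 2 genes were tested. CRT1b, which encodes the chaperone calreticulin of the endoplasmic reticulum, read 611 and 615 at 0 h, 562 and 567 at 1 h, 859 and 1040 at 24 h, and 1703 and 1479 at 7 days. It rose by 1.36 ± 0.18 against 0 h (limma, adjusted p = 0.00057). Against 24 h it rose by 0.74 ± 0.18 (limma, adjusted p = 0.0279), a call lost without either 24 h array (adjusted p = 0.134 and 0.0534), without either 7 day array (adjusted p = 0.161 and 0.0582) and without the intensity trend (adjusted p = 0.0523). Its partner on the list, ATERDJ3B, was not called in either comparison. Both 24 h arrays of CRT1b were above both 0 h arrays.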

How the data were processed

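The 8 ATH1 arrays were analysed from the series' value table. Its values are linear signal intensities, which the authors made with MAS5, per the submitters' processing notes, and deposited scaled to the same trimmed mean on each array. The scanner files, the version of MAS5 and the detection calls were not used here. The table holds 22810 probe sets, 64 of them controls. The platform annotation paired 13513 of the others with 1 gene, 503 with several and left 8730 unlisted, and symbols were updated through gene identifiers in the RefSeq TAIR10.1 gene table, which was otherwise used only for gene order. Microarrays give no counts, so precision rests on the 2 arrays of a group.

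The members, the gene lists and the tests were chosen with earlier results of these data known. Groups were tested with limma 3.58.1 (R 4.3.3) on log2(signal + 8), with 1 mean per group, an intensity trend and two-sided tests over all 8 arrays, and Benjamini-Hochberg adjustment over 15017 probe sets. Calls are at an adjusted p under 0.05. The fit was tested on simulated data. The genes named by rule were the 15 single-gene members with the largest difference at 7 days, members with a symbol, the 2 unnamed members with the largest difference, members called at 1 h or on a list, probe sets at the thresholds, and up to 4 called genes per list. Other members were named after their values were seen. Grouping by gene description could not be applied, since the gene table used holds none, so role groups follow general knowledge of gene families. Promoter and protein sequences were not used here. Alternatives covered the added constant, scaling, the filter, the trend, the arrays fitted, a replicate block and leaving out each array.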

Additional observations from a re-analysis of the deposited data

How the results depend on the processing

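With 2 arrays a group, counts of calls moved with single arrays. For 1 h against 0 h the 48 calls became 29 when the intensity trend was dropped and 23 when dim probe sets were kept, and 16 to 57 with 1 array left out. For 7 days against 0 h the 2989 calls became 1472 to 3202 with 1 array left out. With arrays scaled to equal medians 1655 were higher and 1179 lower, against 1378 and 1611 as reported. For 7 days against 24 h the 1396 calls became 808 without the filter and 291 to 1354 with 1 array left out. Members called at 1 h numbered 0 to 1 with 1 array left out. The 83 members became 129 with a constant of 4, and 79 to 141 with 1 array left out. Their median change at 1 h ran from 0.013 to 0.21 with 1 array left out, without the second and without the first 0 h array.

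The replicate numbers are not stated to pair the arrays. The correlation of same-numbered deviations was 0.39 for 1 h against 0 h, -0.21 for 7 days against 0 h and -0.17 for 7 days against 24 h. With a replicate block the calls numbered 55 for 1 h against 0 h, 3328 for 7 days against 0 h and 1644 for 7 days against 24 h, and no member was called at 1 h. A crossed replicate block, added after the data were seen, gave 4208 calls for 7 days against 0 h and 2720 for 7 days against 24 h. No called value of a named gene changed sign under the alternatives run. Uncalled 1 h differences near 0, such as those of AT5G22580, 2A6, AT5G66530 and AT2G43590, did so when an array was left out. The uncalled 1 h difference of AT3G28310 went from -0.29 to 0.16 without the second 0 h array.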
